A study of Mus musculus with 9 samples.

Results

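RNA of Trp53, the mouse gene for the transcription factor p53, and of 31 known direct targets of p53 was followed across 9 mouse breast tumours. The 32 genes were picked by symbol from a list of p53 and its established targets, and all 32 were found among the 49585 genes of the count table. Mdm2, another p53 target, is not a member of this list. All 32 genes passed the filter on low counts. None is missing from the counts given here, except Gdf15 under a stricter filter used as an alternative.

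Every tumour arose in mice with 1 shared genotype: Trp53wm-R172H/fl, the transgene K14-Cre, and 1 copy of a Cre-dependent Cas9 gene labelled Rosa26LSL CAS9-P2A-EGFP/+. K14-Cre acts in keratin 14-expressing epithelium, the fl allele is one that Cre can inactivate, and R172H alters 1 amino acid in the part of p53 that folds around zinc and holds the DNA-binding domain in shape. What wm stands for is not spelled out in the labels. The controls carry the same alleles, and no tumour with intact p53 or from an uninjected mouse is among the 9, so all values compare tumours of 1 Trp53 genotype. A group of 3 tumours (AAV-Control) received a control adeno-associated virus, and a group of 6 (AAV-delta-mut-p53) received a virus meant to delete mutant p53 in cells that make Cas9. Virus was given on days 0, 3 and 8, and tumours were taken when the mice met euthanasia criteria, so the time from injection to harvest may differ between tumours. The question the comparison addresses is whether p53 RNA and the genes under its control differ after that treatment.

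In normal cells p53 is kept scarce by the ubiquitin ligase MDM2 and is stabilised by DNA damage and other stresses. It then binds response elements near its target genes and switches them on, which halts the cell cycle, repairs DNA or starts apoptosis. Many missense mutants, R172H among them, have lost most of that binding and build up as protein in tumours. p53 is controlled largely as a protein, so its RNA level is not a measure of its activity, whereas the RNA of its targets is the usual readout of that activity.

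The response element joins a pair of half-sites of 10 bases, each with a central C and G. RefSeq promoter windows on GRCm38.p6, which run from 250 bases before to 50 bases after an annotated start, were at hand for 24 of the 32 genes. They were searched for a p53 response element with at most 1 mismatch among its 20 letters and at most 1 base between the half-sites. The element reads alike on both strands, so 1 pass covers both. It was found for 5 of the 24 genes (20.8%), against 57 of 27025 genes with a window (0.211%). Over all windows of the same length, 58 of 32851 (0.177%) held it. None of the 24 had an element without a mismatch. For Bax and Polk the mismatch falls on the central G of 1 half-site, which is an A there. The 5 stretches are printed 5′ to 3′ on the gene's strand because they are the matches the search found, with the letters of the element in capitals.
Cdkn1a: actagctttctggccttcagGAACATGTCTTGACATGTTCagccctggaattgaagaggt
Ccng1: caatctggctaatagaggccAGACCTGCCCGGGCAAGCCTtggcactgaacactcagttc
Bax: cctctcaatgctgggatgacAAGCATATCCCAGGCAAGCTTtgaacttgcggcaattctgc
Polk: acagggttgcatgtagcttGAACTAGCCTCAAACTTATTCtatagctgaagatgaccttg
Gtse1: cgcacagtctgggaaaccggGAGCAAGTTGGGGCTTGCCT

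On GRCm38.p6 the Cdkn1a stretch lies at chr17:29090908-29090967 on the plus strand, and its element begins 51 bases before the start site. The Ccng1 stretch is at chr11:40755442-40755501 on the minus strand and its element begins 195 bases before the start. The Bax stretch, at chr7:45467070-45467130 on the minus strand, has its element 212 bases before the start and lies within an intron of Gm45808, a gene model that runs into Bax. For Polk the stretch is at chr13:96519378-96519437 on the minus strand, its element begins 231 bases before a RefSeq start, and GENCODE places it in an intron of longer Polk transcripts. The Gtse1 stretch is at chr15:85859925-85859964 on the plus strand, and its element begins 1 base before the start and runs into the 5′ untranslated part of the first exon of 1 Gtse1 transcript. These are matches of letters, not measured binding. Most known elements of p53 targets lie in introns or further upstream, outside these windows.

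Libraries held 18581545 to 30953250 counts, and each control was deeper than each other library. AAV-delta-mut-p53 2 stood apart: the summed level of 5 skeletal muscle genes was 36555 CPM (counts scaled to a common library total) there and 19.4 to 315 in the other 8 tumours. The summed level of 6 epithelial genes was 181 CPM in that tumour and 1303 to 5041 in the others. For 7 leukocyte genes the sum was 1084 CPM against 112 to 396, although 1 of them, the neutrophil gene S100a8, was at 2.03 CPM there and at 0.33 to 50.5 in the others. The counts over the list, and the values of some members, are given with and without it. AAV-delta-mut-p53 4 and 5 carry the same number in their titles and may be from 1 mouse. Beyond that nothing says how the samples relate, so p-values measure the spread between these samples. In bulk tumour RNA, fewer cells of a type and less RNA per cell cannot be told apart.

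No member differed between the groups beyond the spread of the tumours. By edgeR's quasi-likelihood test over 19606 genes, 0 of 32 passed a false discovery rate (FDR) of 0.05, as did 0% of all genes tested, and the adjusted p of the members ran from 0.677 to 0.997. At an unadjusted p under 0.05 there were again 0 members, against 7.07% of all genes. DESeq2 gave 0 members at FDR 0.05 (0.53% of all genes) and 0 at an unadjusted p under 0.05 (9.8% of all). limma voom gave 0 at FDR 0.05 (0% of all) and 2 at an unadjusted p under 0.05 (10.4% of all), Plk2 and Psrc1, both lower. In 0 members did every AAV-delta-mut-p53 tumour lie above every control (1.47% of all genes), and in 0 did every one lie below (1.59% of all). In simulated data the edgeR fit called 0 of 50 genes changed by a log2 size of 1, and 8 of 50 changed by 2. The absence of calls among the members therefore does not exclude changes of these sizes.

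On average, 12 members were higher in AAV-delta-mut-p53 and 20 were lower. The median log2 fold change of the members was -0.21, against 0.09 over all genes tested, of which 55.6% were higher. Only 4 of the 32 had a log2 fold change beyond 1 in size, against 19.8% of all genes: Eda2r, Plk2 and Psrc1 on the lower side and Plk3 on the higher. Without AAV-delta-mut-p53 2 the split was again 12 higher and 20 lower, and the median was -0.23. In that fit 1 member, Eda2r, had an edgeR unadjusted p under 0.05, against 8.79% of all genes. The 95% intervals were wide: 11 members kept a log2 change of 1 upward within their interval, 17 kept 1 downward, and 7 lay wholly between -1 and 1.

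**Figure D1:**
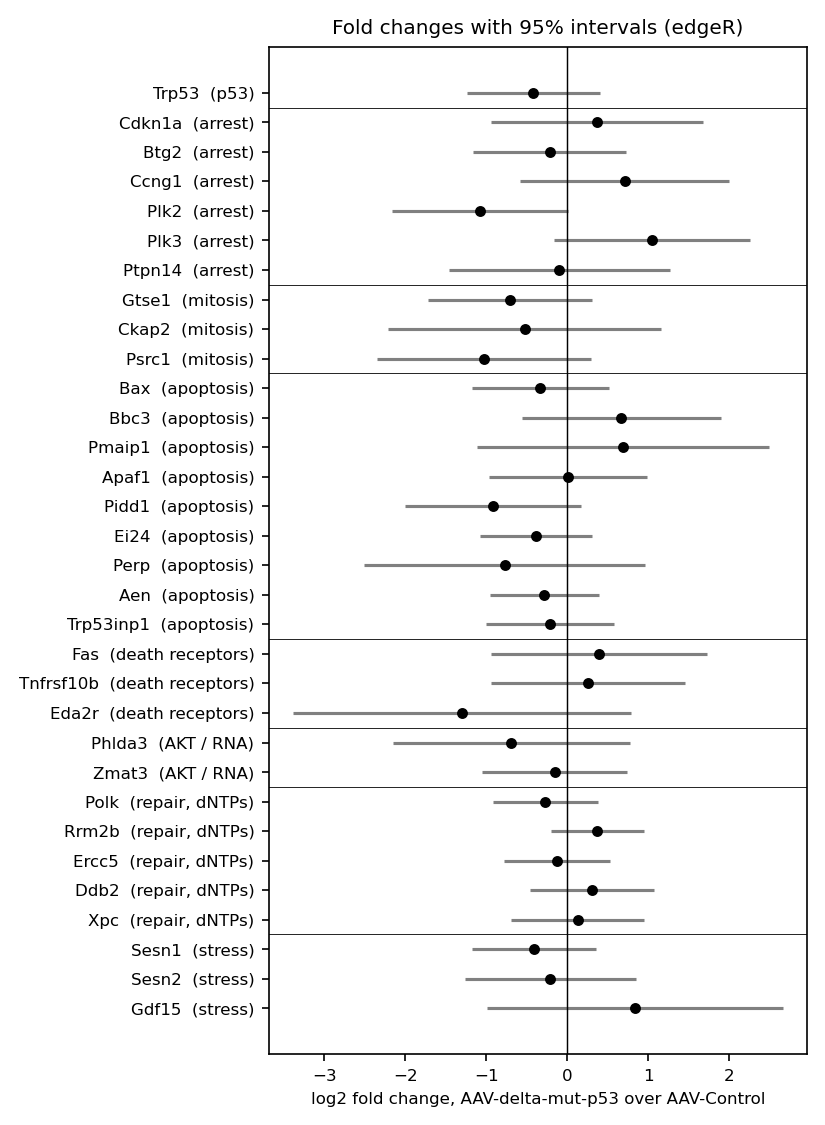
Log2 fold change of AAV-delta-mut-p53 (6 tumours) over AAV-Control (3 tumours) for each of the 32 genes, by role; points are edgeR estimates and lines are 95% intervals. Every interval crosses 0, Plk2 by the smallest margin (upper bound 0.01), and the widest is that of Eda2r.

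Trp53 itself (chr11:69580359-69591873, plus strand, GRCm38) was measured at 48.6, 39.3 and 42.3 CPM in AAV-Control 1 to 3. Among the AAV-delta-mut-p53 tumours the lowest was 13.1, the median 38.4 and the highest 41.5 CPM. AAV-delta-mut-p53 1 and 2, at 13.1 and 22 CPM, were far below every control. AAV-delta-mut-p53 3 and 4, at 39.0 and 37.8 CPM, were just under the lowest control, and AAV-delta-mut-p53 5 and 6 lay between controls. The log2 fold change was -0.42 ± 0.37 (standard error, SE), with a 95% interval of -1.24 to 0.40 and an edgeR adjusted p of 0.78. An exact 2-sided permutation test over the 84 assignments of the 9 tumours gave p = 0.131, where 0.0119 is the smallest it can give. Counts per gene do not separate the Trp53 alleles, or edited from unedited transcripts.

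The genes beside Trp53 on chromosome 11 were, by their median, not as low as Trp53 in AAV-delta-mut-p53 1 and 2. There were 66 protein-coding genes within 1 Mb with a mean of at least 5 CPM. In AAV-delta-mut-p53 1, Trp53 was at -1.58 on the log2 scale relative to its median over the 9 tumours, and the median of the neighbours was -0.26. In AAV-delta-mut-p53 2 the values were -0.84 for Trp53 and 0.03 for the neighbours. AAV-delta-mut-p53 1 had epithelial genes at 2493 CPM, within the range of the other tumours, whereas AAV-delta-mut-p53 2 had the 181 CPM given above. The part of tissue makeup in the lower Trp53 level of AAV-delta-mut-p53 1 and 2 was not tested, and DNA copy number was not measured here.

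**Figure D2:**
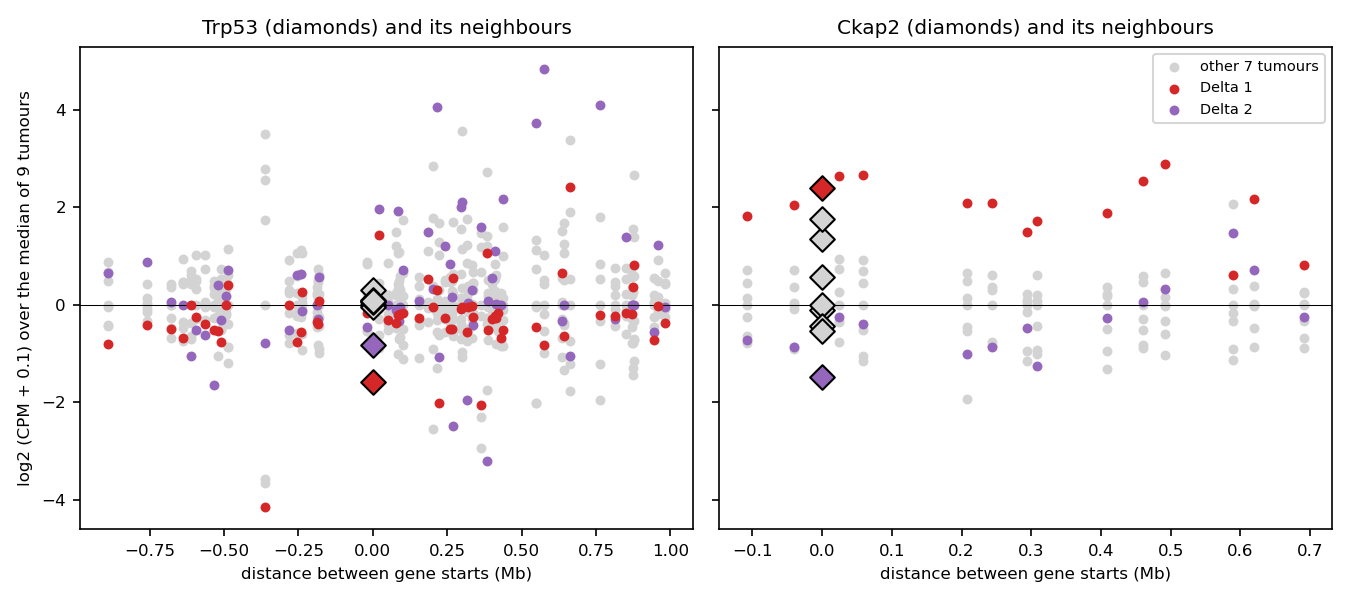
Log2 of CPM (plus 0.1) over the median of the 9 tumours for Trp53 and Ckap2 (diamonds) and for protein-coding genes within 1 Mb of each (dots), against the distance between gene starts in Mb; AAV-delta-mut-p53 1 is red, AAV-delta-mut-p53 2 purple and the other 7 tumours grey. The red diamond of Trp53 lies at -1.58, under most red dots (neighbour median -0.26), while the red diamond of Ckap2 lies at 2.40 among red dots with a median of 2.06.

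The arrest genes held 6 members, of which 3 were higher and 3 lower on average. Cdkn1a encodes p21, the inhibitor of cyclin-dependent kinases that carries much of the p53 arrest. It stood at 5.24, 11.7 and 5.66 CPM in the controls and at 3.63, 9.84 and 20.4 CPM as the lowest, median and highest of the other group, which is the order of the 3 values given for that group throughout. All 3 controls lay within its range, and AAV-delta-mut-p53 6 had the highest and AAV-delta-mut-p53 4 the lowest level of all 9 tumours. For Cdkn1a the log2 fold change was 0.37, with a 95% interval of -0.94 to 1.67 and an edgeR adjusted p of 0.886. Without AAV-delta-mut-p53 6 it was 0.0164. Neither of the tumours low in Trp53 was at an end of the Cdkn1a range, with Cdkn1a at 10.1 CPM in the first and 10.8 in the second.

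Plk2, a polo-like kinase induced by stress, came nearest to a difference. Controls 1 to 3 had 383, 311 and 174 CPM, and the other group had 46.1 as the lowest, 121 as the median and 281 as the highest. All AAV-delta-mut-p53 tumours but number 3 were below every control, and that tumour lay between controls 2 and 3. Plk2 had a log2 fold change of -1.08 ± 0.49 (SE), with an unadjusted p of 0.0517 and an adjusted p of 0.677 in edgeR. Without AAV-delta-mut-p53 3, the only one to reach the control range, the groups necessarily no longer overlapped. In that fit the groups did not overlap in 3.91% of all genes. The Plk2 log2 fold change was then -1.41, with an edgeR adjusted p of 0.729.

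Plk3, a related kinase that acts in the DNA damage response, ran the other way. It was at 6.92, 8.87 and 5.98 CPM in the controls, and at 6.42, 11.6 and 32.6 CPM as the lowest, median and highest of the others. AAV-delta-mut-p53 1, 2, 3 and 6 were above every control, and AAV-delta-mut-p53 4 and 5 were within the control range. Plk3 had a log2 fold change of 1.04, with a 95% interval of -0.17 to 2.25 and an edgeR adjusted p of 0.677. Plk3 shares exonic bases with Tctex1d4 on the other strand.

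The remaining arrest genes had wider or smaller differences. Ccng1, which encodes cyclin G1, was at 85.8 to 117 CPM in the controls and at 70.1 to 198 in 5 of the others, with 457 CPM in AAV-delta-mut-p53 2. Ccng1 had a log2 fold change of 0.71, and of 0.13 without that tumour. Btg2, an antiproliferative gene, ranged from 11.5 to 45.5 CPM over all 9 tumours with a log2 fold change of -0.22, and Ptpn14, a phosphatase that restrains YAP signalling, from 31.9 to 248 CPM with -0.10. The Ptpn14 minimum was in AAV-delta-mut-p53 3 and its maximum in AAV-delta-mut-p53 6, so both ends of its range came from the same group.

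**Figure D3:**
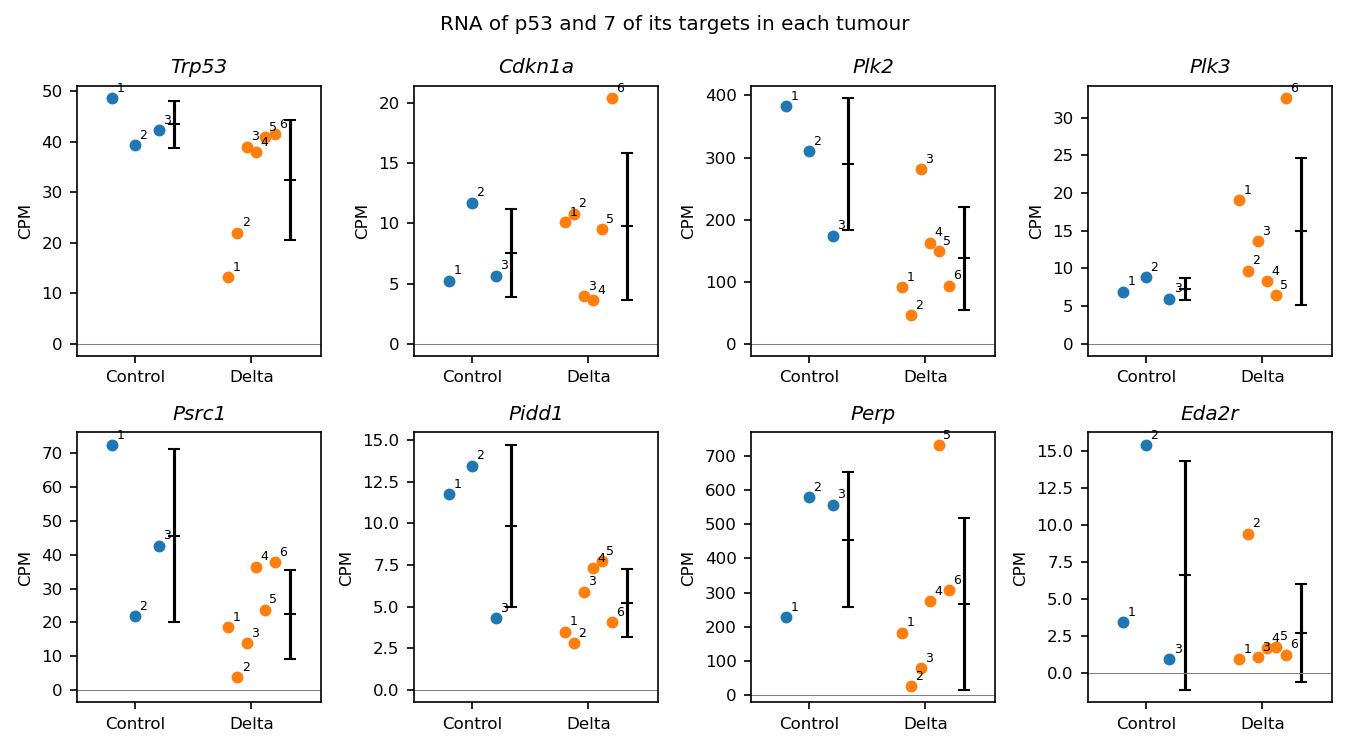
CPM of Trp53 and 7 of its targets in each tumour on linear axes, with tumour numbers beside the points; bars beside each group are the mean and standard deviation (n = 3 AAV-Control, shown as Control, and n = 6 AAV-delta-mut-p53, shown as Delta). In every panel the groups overlap: for Plk2 only AAV-delta-mut-p53 3 (281 CPM) reaches the control range, and for Eda2r the control range of 0.911 to 15.4 CPM takes in all but the lowest of the others.

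Gtse1, Ckap2 and Psrc1 form the mitotic members, and all 3 had negative log2 fold changes. Psrc1, a spindle protein, was at 72.5, 21.9 and 42.7 CPM in the controls and at 3.88, 21.2 and 37.9 CPM as the lowest, median and highest of the others. Control 2 lay within the AAV-delta-mut-p53 range and the other controls above it. Psrc1 had a log2 fold change of -1.03 ± 0.60 (SE), with an edgeR adjusted p of 0.689. Without AAV-delta-mut-p53 2 the log2 fold change was -0.80.

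Gtse1, a microtubule-binding protein of the G2 phase that also binds p53, was at 32.5, 50.03 and 18.3 CPM in the controls. In AAV-delta-mut-p53 the lowest was 5.96, the median 23.0 and the highest 26.0 CPM. Control 3 was below 5 of the 6, and only AAV-delta-mut-p53 2 was below it. For Gtse1 the log2 fold change was -0.71, with a 95% interval of -1.72 to 0.31 and an edgeR adjusted p of 0.705, and it was -0.51 without AAV-delta-mut-p53 2.

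Ckap2, a protein of the mitotic spindle, had its extremes in single tumours. The controls had 159, 57.7 and 211 CPM, and the others 22.4 as the lowest, 54.2 as the median and 329 as the highest. AAV-delta-mut-p53 1 exceeded every other tumour, and the next of its group was at 92.3 CPM. Ckap2 had a log2 fold change of -0.52 with an edgeR adjusted p of 0.872, and -1.41 with an adjusted p of 0.697 without AAV-delta-mut-p53 1.

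The neighbours of Ckap2 were high in that same tumour. There were 14 protein-coding genes within 1 Mb of it on chromosome 8 with a mean of at least 5 CPM. Relative to the median of the 9 tumours, Ckap2 was at 2.40 on the log2 scale in AAV-delta-mut-p53 1, and the 14 neighbours had a median of 2.06, with 12 of them at 1 or more. In the other 8 tumours the median of the neighbours ran from -0.80 to 0.31. The high Ckap2 level of AAV-delta-mut-p53 1 thus came with a high level of the genes around it, and DNA copy number was not measured here. In Control 1 and Control 3, where Ckap2 was at 1.35 and 1.75, the neighbours were at 0.22 and 0.31.

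Apoptosis genes made up 9 members, of which 3 were higher and 6 lower on average, with 0 beyond 1 in size. Pidd1, the scaffold of a complex that activates a caspase, was at 11.8, 13.5 and 4.32 CPM in the controls. Its lowest, median and highest values in AAV-delta-mut-p53 were 2.82, 4.99 and 7.74 CPM. Controls 1 and 2 were above all 6 others and control 3 was among them. Pidd1 had a log2 fold change of -0.91 ± 0.49 (SE), with an edgeR unadjusted p of 0.0909 and an adjusted p of 0.678.

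Perp, a membrane protein of desmosomes that p53 and its relative p63 switch on, had the widest range of the 32 genes, 29.0-fold from lowest to highest tumour. It was at 227, 581 and 558 CPM in the controls and at 25.3, 229 and 734 CPM as the lowest, median and highest of the others. The lowest value was in AAV-delta-mut-p53 2, which also had the lowest epithelial genes, and the highest in AAV-delta-mut-p53 5. For Perp the log2 fold change was -0.77, with an edgeR adjusted p of 0.811, and it was -0.52 without AAV-delta-mut-p53 2. The part of epithelial content in this range was not tested, and AAV-delta-mut-p53 3, at 78.5 CPM of Perp, had epithelial genes at 2509 CPM. The basal genes Krt5, at 1.76 CPM, and Trp63, at 3.47 CPM, were the lowest of all 9 tumours in AAV-delta-mut-p53 3. The basal keratin Krt14 was not, at 15.0 CPM there, against 13.9 in control 1, 3.90 in control 2 and 8.92 in AAV-delta-mut-p53 2. It was higher in every remaining tumour. In AAV-delta-mut-p53 6, Krt5 was also low, at 2.65 CPM, while Trp63 was at 64.9 and Perp at 306 CPM.

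Ei24, an endoplasmic reticulum protein that takes part in autophagy, was at 62.9, 94.4 and 85.5 CPM in the controls, with 30.1, 65.5 and 79.6 CPM as the lowest, median and highest of the others. Its log2 fold change was -0.38 with an edgeR adjusted p of 0.76, and control 1 lay among the AAV-delta-mut-p53 tumours. The 2 BH3-only genes had positive log2 fold changes. Bbc3, which encodes PUMA, was at 0.713 to 3.04 CPM in the controls and 2.17 to 4.64 in the others (log2 fold change 0.67). Control 3 had 18 counts of Bbc3, and without that tumour the log2 fold change was 0.24. Pmaip1, which encodes NOXA, was at 1.23 to 8.57 CPM in the controls and at 2.92 to 8.13 in 5 of the others, with 23.9 CPM in AAV-delta-mut-p53 3 (log2 fold change 0.69).

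Interferon-induced genes were high in the tumour with the highest Pmaip1. The summed level of 7 such genes was 640 CPM in AAV-delta-mut-p53 3. It was 655 CPM in tumour 4 of that group, 582 in tumour 6 and 469 in tumour 2, against 48.0 to 113 in the other 5 tumours. Pmaip1 was at 3.91 CPM in AAV-delta-mut-p53 4, which had the highest interferon sum. The part of the interferon genes in the Pmaip1 level was not tested.

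The other apoptosis genes had smaller average differences. Bax, the pore-forming effector of mitochondrial death, was at 8.87 to 19.1 CPM in the controls and 8.40 to 19.1 in the others, with a log2 fold change of -0.33. Apaf1, which builds the apoptosome, had nearly equal means of 55.7 and 56.0 CPM (log2 fold change 0.01). AAV-delta-mut-p53 2 had the highest Apaf1, at 114 CPM, and without that tumour the log2 fold change was -0.32. The nuclease Aen gave -0.28 and the autophagy and stress gene Trp53inp1 gave -0.21 on the same scale. Bax shares exonic bases with Gm45808 on its own strand, so its counts are uncertain in size.

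Receptors of the list were Fas, Tnfrsf10b and Eda2r. Eda2r, a receptor for ectodysplasin, had the lowest level per length of the 32 genes and the most negative log2 fold change, -1.30 with an edgeR adjusted p of 0.73. The controls had 3.41, 15.4 and 0.911 CPM, and the others 0.899 as the lowest, 1.45 as the median and 9.43 as the highest. Control 2 and AAV-delta-mut-p53 2 stood above all other tumours, so each group had 1 high member. Without AAV-delta-mut-p53 2 the log2 fold change was -2.31 (edgeR unadjusted p = 0.0116, adjusted p = 0.506), and without control 2 it was 0.31. Summed skeletal muscle genes were at 126 CPM in control 2, below the 164, 315 and 142 CPM of AAV-delta-mut-p53 1, 3 and 4, where Eda2r was at 0.899, 1.07 and 1.67 CPM. The part of muscle in the Eda2r level of AAV-delta-mut-p53 2 was not tested.

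Fas was at 2.11, 5.57 and 6.62 CPM in the controls and at 1.86, 5.67 and 11.1 CPM as the lowest, median and highest of the others (log2 fold change 0.39, edgeR adjusted p = 0.879, and 0.17 without AAV-delta-mut-p53 2). Tnfrsf10b, a receptor for TRAIL, was at 8.64, 15.5 and 7.09 CPM in the controls and at 3.79, 10.5 and 21.9 CPM in the others (0.26, edgeR adjusted p = 0.914). In both genes the controls lay inside the range of the AAV-delta-mut-p53 tumours. AAV-delta-mut-p53 2 had the highest Fas and the lowest Tnfrsf10b of all 9 tumours.

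Phlda3 encodes a small protein that keeps AKT from the membrane, and Zmat3 an RNA-binding protein that acts on splicing. Phlda3 was at 124, 62.0 and 66.4 CPM in the controls, with 13.5, 45.2 and 140 CPM as the lowest, median and highest of the others. AAV-delta-mut-p53 5 was the highest of all 9 tumours, and the other 5 of its group were below every control. The log2 fold change was -0.69 with an edgeR adjusted p of 0.801, and -1.28 with an adjusted p of 0.459 without that tumour. Zmat3 was at 20.2, 32.6 and 18.3 CPM in the controls and at 9.72, 20.8 and 33.8 CPM in the others, a log2 fold change of -0.16 with full overlap and an edgeR adjusted p of 0.933.

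Of the 5 repair genes, 4 (Rrm2b, Ercc5, Polk and Ddb2) had the narrowest ranges between tumours among the 32 genes. Rrm2b, a subunit of ribonucleotide reductase that supplies nucleotides for repair, had a range of 1.76-fold. It was at 30.2, 23.1 and 22.5 CPM in the controls and at 27.9, 31.6 and 39.5 CPM as the lowest, median and highest of the others. Control 1 lay within the AAV-delta-mut-p53 range and the other controls below it. For Rrm2b the log2 fold change was 0.37, with a 95% interval of -0.21 to 0.95 and an edgeR adjusted p of 0.723. Rrm2b shares exonic bases with Gm49085 on the other strand.

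Polk, a polymerase that copies past damaged bases, was at 39.9, 33.6 and 36.1 CPM in the controls and at 23.4, 27.2 and 46.9 CPM in the others. Only AAV-delta-mut-p53 2 was above a control, and the log2 fold change was -0.27 (edgeR adjusted p = 0.821). Xpc, a sensor of helix-distorting lesions, had 58.6, 50.03 and 58.5 CPM in the controls and 27.6, 57.8 and 93.8 CPM in the others (0.13, edgeR adjusted p = 0.943). The spread of Xpc was wider in the larger group, with a standard deviation of 25.0 CPM against 4.94. The nuclease gene Ercc5 gave a log2 fold change of -0.13 and Ddb2, part of the ultraviolet damage sensor, gave 0.30. Ddb2 was at 20.4 CPM in AAV-delta-mut-p53 1 and at 9.86 to 13.9 in every other tumour. It shares exonic bases with Acp2 on the other strand.

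Stress and growth genes closed the list. Sesn1, a sestrin that restrains mTORC1, was at 44.4, 52.0 and 57.7 CPM in the controls and at 20.3, 41.5 and 55.1 CPM as the lowest, median and highest of the others. AAV-delta-mut-p53 1, 3 and 4 were below every control and the other three overlapped with them. Sesn1 had a log2 fold change of -0.41, with a 95% interval of -1.17 to 0.35 and an edgeR adjusted p of 0.769. Sesn2, its relative, gave -0.21 over a range of 8.40 to 36.0 CPM.

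Gdf15, a secreted cytokine of the stress response, was barely detected, at 0.597, 0.567 and 0.158 CPM in the controls and 0.244, 0.463 and 2.22 CPM in the others. Control 3 had 4 counts of it and AAV-delta-mut-p53 2 had 48, the most of any tumour. For Gdf15 the log2 fold change was 0.83, with a 95% interval of -0.99 to 2.65 and an edgeR adjusted p of 0.806, and it was 0.19 without AAV-delta-mut-p53 2. A log2 change of 1 upward in Gdf15 lies within that interval.

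Levels were compared between genes only per length, as median CPM over the 9 tumours per kilobase of exon. Perp was highest at 141, followed by Plk2 at 36.2, Phlda3 at 35.6 and Ccng1 at 29.4. Trp53 was the 11th at 9.72 and Cdkn1a the 25th at 2.69, beside Fas at 2.70. Gdf15 at 0.306 and Eda2r at 0.284 were lowest. Of the 31 pairs of neighbours in this order, 31 overlapped in their ranges over the 9 tumours. The range of a single gene from lowest to highest tumour had a median of 5.12-fold, with 7 genes over 10-fold and 8 under 3-fold.

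The tumours did not order the targets alike. AAV-delta-mut-p53 3 had the lowest level of 10 of the 31 targets and AAV-delta-mut-p53 2 of 9, but AAV-delta-mut-p53 2 also had the highest level of 5. Control 2 was highest in 6 targets and control 3 lowest in 5. Relative to the mean of the controls on the log2 scale, the median of the targets was -0.63 in AAV-delta-mut-p53 3, and it ran from -0.28 to 0.11 in the other AAV-delta-mut-p53 tumours. Within the controls it ran from -0.16 to 0.23. Trp53 in AAV-delta-mut-p53 3 was at 39.0 CPM, above its level in AAV-delta-mut-p53 1 and 2. Those tumours, with the lowest Trp53, had target medians of -0.28 and -0.19, the lowest after that of AAV-delta-mut-p53 3. A link between Trp53 RNA and the level of the targets was not tested.

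**Figure D4:**
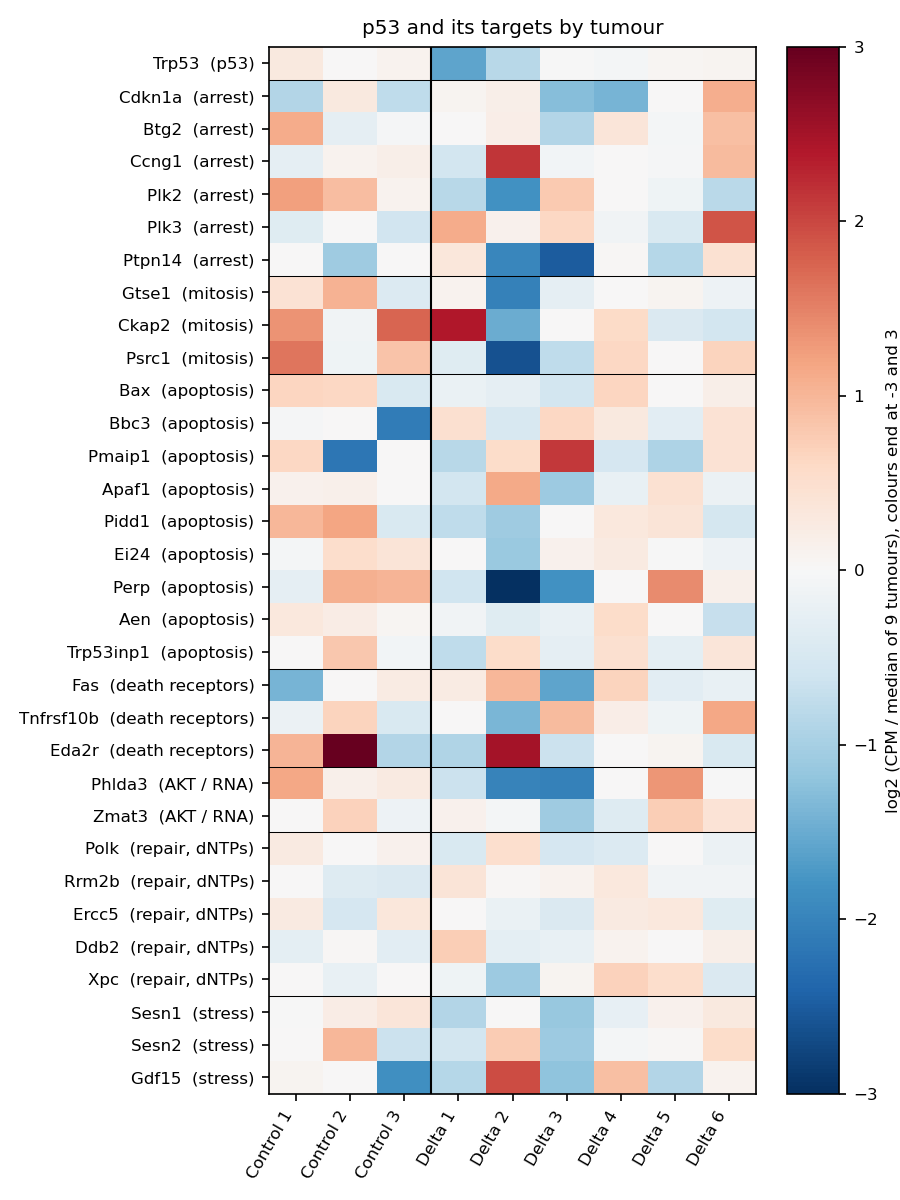
Log2 of CPM over the median of the 9 tumours for the 32 genes (rows, by role) in 3 AAV-Control (Control) and 6 AAV-delta-mut-p53 (Delta) tumours (columns); blue is below and red above the median, and colours end at -3 and 3. No block of rows separates the groups; the strongest colours sit in single tumours, such as Eda2r in control 2, Ckap2 in AAV-delta-mut-p53 1 and Perp in AAV-delta-mut-p53 2.

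The 5 genes whose promoter windows held a match to the p53 response element, each with 1 mismatch, had differences of both signs. Their log2 fold changes were 0.37 for Cdkn1a, 0.71 for Ccng1, -0.33 for Bax, -0.27 for Polk and -0.71 for Gtse1. In AAV-delta-mut-p53 1, where Trp53 was lowest, Ccng1 and Polk were below every control while Cdkn1a, Bax and Gtse1 lay within the control range. In AAV-delta-mut-p53 2, Ccng1 and Polk were the highest of all 9 tumours and Gtse1 the lowest. No match in the other 19 windows says only that these letters are not there.

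Of 74 other genes of the pathway, 0 were past FDR 0.05 under edgeR, as were 0% of all genes tested. Among 24 regulators of p53, 8 were higher and 16 lower, and 1 of them (7.07% of all genes) had an unadjusted p under 0.05. That gene was Trp63, which encodes the p53 relative p63, the master regulator of basal epithelium. It was at 309, 600 and 349 CPM in the controls and at 3.47, 107 and 211 CPM as the lowest, median and highest of the others, so the groups did not overlap (every tumour below every control in 1.59% of all genes). Trp63 had a log2 fold change of -2.004 ± 0.82 (SE), with an edgeR unadjusted p of 0.0341 and an adjusted p of 0.677, and its unadjusted p rose above 0.05 without control 2 (0.119), control 3 (0.0534), AAV-delta-mut-p53 2 (0.0549) or AAV-delta-mut-p53 6 (0.0611). Cdkn2a, which encodes p16 and the ARF protein that frees p53 from MDM2, had 29.5, 27.3 and 14.9 CPM in the controls and 20.7, 42.0 and 71.4 CPM in the others (log2 fold change 0.89, edgeR adjusted p = 0.677). Bcl6, a repressor of Trp53, gave 0.64 with an edgeR adjusted p of 0.714.

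Of 30 further p53 targets, 22 were higher and 8 were lower. Their median log2 fold change was 0.28, against 0.09 over all genes, of which 55.6% were higher. An unadjusted p under 0.05 was reached by 4 of them, against 7.07% of all genes. Lif, a cytokine of the interleukin 6 family, was at 1.76, 0.901 and 3.29 CPM in the controls and at 2.21, 8.65 and 44.4 CPM as the lowest, median and highest of the others. AAV-delta-mut-p53 5 overlapped with the controls and the other five were above them. Its log2 fold change was 3.26 with an adjusted p of 0.677 in edgeR, and 3.27 with an adjusted p of 0.0379 in DESeq2, which made it the only gene of the 74 called by either tool. Thbs1, which encodes the matrix protein thrombospondin, gave 1.81 with an edgeR adjusted p of 0.677, and Mdm2 gave -1.61 with an adjusted p of 0.677, where control 3 at 561 CPM was far above the other controls and without it the value was -0.24 (edgeR unadjusted p = 0.445). Gls2, a glutaminase, was the fourth, at 1.22 with an edgeR adjusted p of 0.677.

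Cell division genes are lowered by p53 indirectly, through p21 and the DREAM repressor complex. All 20 listed had negative log2 fold changes, with a median of -0.42, against 0.09 over all genes, of which 55.6% were higher. In edgeR 2 of them reached an unadjusted p under 0.05, against 7.07% of all genes. Cenpa, the centromere histone, was at 115, 72.4 and 70.4 CPM in the controls and at 19.4, 42.6 and 60.4 CPM as the lowest, median and highest of the others, without overlap, as in 1.59% of all genes (log2 fold change -1.03, edgeR adjusted p = 0.677). Mki67, the proliferation marker, gave -0.83 with an adjusted p of 0.677, and Ccnb1, which encodes cyclin B1, gave -0.84 with an adjusted p of 0.678. The median of the 20 relative to the control mean was -2.06 in AAV-delta-mut-p53 2, the tumour high in muscle genes, and lay between -0.45 and 0.13 in the other 5 tumours of its group. Without AAV-delta-mut-p53 2, 15 of the 20 were lower and the median was -0.22. The part of muscle and immune content in this list was not tested. The mitotic members Psrc1 and Gtse1 were likewise lowest of all tumours in AAV-delta-mut-p53 2, as was Ckap2.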

How the data were processed

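Total RNA of flash-frozen tumours was sequenced as stranded libraries, per the labels' protocols. The authors deposited whole-number read counts per gene for 9 tumours. STAR 2.6.0b, DESeq2 and GRCm38 are named in the submitters' processing notes, without saying what each was used for. The sources used here do not state how reads were counted, with or without strand, or on which annotation release, so genes that share exonic bases with another gene (7 members, 6 of them with a gene on the other strand) are uncertain. Columns were tied to tumours by title, and replicate numbers only follow the order of the samples.

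Symbols and positions came from GENCODE mouse release 21 on GRCm38. Genes kept by edgeR's filterByExpr (minimum count 10) were fitted with edgeR 4.0.16 in R 4.3.3, with TMM scaling, the 2-sided quasi-likelihood test, no covariate, and Benjamini-Hochberg adjustment over all 19606 genes. CPM are TMM-scaled. The Trp53 permutation test used log2(CPM + 1). Alternatives were RLE and library size scaling, other filters, DESeq2 1.42.0, voom with quality weights (limma 3.58.1), the pair of samples with the same number in their titles summed, each tumour left out, and a pseudocount of 0.1. The edgeR fit and the element search were tested on simulated data. There the fit called 0 of 50 genes changed by a log2 size of 1, and 8 of 50 changed by 2. It called 28 of 48 genes changed by 3 and 43 of 49 changed by 4. Of 18965 unchanged genes it called 4.

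The members, their roles and the pathway lists were chosen with earlier results of these data known. Members described by tumour are Trp53, Cdkn1a and, per role, the 2 with the smallest p and the 1 with the highest mean. From each pathway list the 3 genes with the smallest p were named, and Gls2, the comparison with neighbouring genes, the interferon values and the single genes set beside other tissue were added after values were seen. Promoter sequences are from RefSeq, GRCm38.p6. Of the leukocyte list, 1 marker gene is not reported here.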

Additional observations from a re-analysis of the deposited data

Results flagged for a closer look

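Among the 6 AAV-delta-mut-p53 tumours, 7 of the 32 genes had 1 tumour far from the other 5, by a gap to the nearest that took up more of the group's range than Dixon's 95% limit. That is 21.9% of the members, and the same held for 20.4% of all 19606 genes tested, most often through AAV-delta-mut-p53 2 (8.92% of all genes). Chance flags about 1 in 20 groups only where values are normally distributed, which CPM need not be, and genes of 1 tumour are not independent. AAV-delta-mut-p53 2 was the one for 3 of them: Ccng1 was at 457 CPM (others 70.1 to 198), Eda2r at 9.43 CPM (others 0.899 to 1.77) and Gtse1 at 5.96 CPM (others 19.98 to 26.0). AAV-delta-mut-p53 1 stood out for Ckap2, at 329 CPM (others 22.4 to 92.3), and for Ddb2, at 20.4 CPM (others 10.03 to 13.9). Pmaip1 was at 23.9 CPM in AAV-delta-mut-p53 3 (others 2.92 to 8.13), and Phlda3 at 140 CPM in AAV-delta-mut-p53 5 (others 13.5 to 55.5). The group of 3 controls was not examined in this way.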

How the results depend on the processing

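Under 16 alternatives, 0 members passed FDR 0.05. The log2 fold change of 22 members, Trp53 included, kept its sign in each alternative that tested the gene. Gdf15, 1 of the 22, did not pass the stricter filter and was tested in 15 alternatives. Members with an unadjusted p under 0.05 numbered 0 by the edgeR test as reported (7.07% of all genes). There was 1 with library size scaling (6.82% of all genes), 1 without a filter (6.89%) and 1 with the stricter filter (7.15%), Plk2 each time. With voom there were 2 (10.4% of all genes). With each tumour left out there were 0 to 2, where 4.24% to 10.3% of all genes had one. Members whose groups did not overlap numbered 0, and 0 to 3 with each tumour left out, the 3 being Pidd1, Plk2 and Gtse1 without control 3, where 7.32% of all genes did not overlap (3.06% with all tumours). Trp53 and Psrc1 were so without control 2 (7.01% of all genes). DESeq2 called 104 genes in all, and 1 other p53 pathway gene (Lif). The cause of these differences was not tested. For 10 members the sign changed. Apaf1 (0.01 as reported) was -0.29 with voom, -0.0214 without a filter and -0.32 to 0.16 with each tumour left out. Pmaip1 was -0.0156 with voom and -0.000174 to 1.28 with each tumour left out. Xpc was -0.0277 with the same-numbered pair of samples summed and -0.0283 to 0.29 with each tumour left out. The other 7 changed sign only with a tumour left out: Btg2 (-0.46 to 0.33), Eda2r (-2.31 to 0.31), Ercc5 (-0.34 to 0.0205), Ptpn14 (-0.37 to 0.11), Sesn2 (-0.52 to 0.36), Trp53inp1 (-0.38 to 0.13) and Zmat3 (-0.33 to 0.15). The lowest levels, of Gdf15 and Eda2r, rest on few counts and limit what those genes can show.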
